A study of Mus musculus with 6 samples.

Results

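The genes of oxidative phosphorylation were followed complex by complex in bulk RNA-seq libraries of mouse testis. They were taken as the protein-coding rows of the count table whose symbols begin with Nduf, Uqcr, Cox4 to Cox8, Atp5 or mt-, or are Sdha, Sdhb, Sdhc, Sdhd, Cycs or Cyct. The rule used no measured value and gave 111 of the 54100 genes in the table, 98 encoded in the nucleus and 13 in the mitochondrial genome. A filter on low counts passed 100 of them, 92 nuclear and 8 mitochondrial. The 11 that were not tested were Cox4i2, Cox5b-ps, Cox6a2, Cox8b, Atp5g2, a second locus that also carries the symbol Atp5o, mt-Atp6, mt-Atp8, mt-Co3, mt-Nd3 and mt-Nd4l. Left out by the rule were 2 mitochondrial rRNA rows, 22 mitochondrial tRNA rows, 15 processed pseudogene rows and 1 transcribed pseudogene row with matching symbols.

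Sections of frozen testis gave 6 libraries, of which 3 came from the wild type (WT) and 3 from mice with an H3t deletion. H3t encodes a testis variant of histone H3. The labels give no age, strain, treatment or further allele for either group, do not say how the deletion was made or in which cells it is present, and name no batch. Each library carries a different mouse number in its title and nothing else says that the samples were separate animals, so the p-values rest on the variation among these samples, part of which may be technical. The series concerns Leydig cells in testes that lack normal spermatogenesis, and the comparison of the groups asked here how the respiratory chain genes stood in such testes.

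In oxidative phosphorylation, complexes I and II pass electrons from NADH and succinate to ubiquinone, complex III passes them on to cytochrome c, and complex IV passes them to oxygen. Complexes I, III and IV pump protons while doing so, and complex V, the ATP synthase, uses the proton gradient to make ATP. Most subunits are encoded in the nucleus, but catalytic subunits of complexes I, III and IV and a channel subunit of complex V come from the mitochondrial genome, and complex II is wholly nuclear. Germ cells in meiosis and after it use testis forms of cytochrome c and of some complex IV subunits, whereas the somatic cells of the testis use the general forms.

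Total counts ran from 8037826 to 10702930 per library. H3f4, the current symbol of H3t, had 356 to 571 counts per WT library and 0 in each deletion library. Markers of 4 testis cell types separated the groups. With TMM scaling, all 25 spermatid markers tested fell, from a summed 37600 to 39400 counts relative to the scaled library total (CPM) per WT library to 157 to 266, and all 24 tested markers of meiotic prophase fell, from 10500 to 11000 to 698 to 771. All 28 Sertoli markers rose, from a summed 1410 to 1590 to 6210 to 6340 CPM, and all 22 tested Leydig markers of 25 listed rose, from 1400 to 1580 to 9420 to 10300 CPM. Fewer cells of a type and less RNA per cell cannot be told apart in bulk samples, and the part of these marker changes in the results below was not tested.

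Promoter sequences are shown for the paired testis and general forms, because those pairs moved apart in the results below. No promoter was matched to Cox8c, so Cox8a is shown without its testis form. RefSeq promoters (GRCm38.p6) were matched by Ensembl identifier, or else by symbol, to 79 of the 98 nuclear members, with 84 entries in all. Both loci named Atp5o had the same GC content, CpG count and motif counts, so the same promoter may be counted for each. Each run below is the 250 bases before the start site, 5′ to 3′ on the strand of the gene. Capitals mark CCGGAAG (GABPA), TGACGTCA (the cAMP response element, CRE), the NRF1 palindrome and CCAAT on either strand, the last motif chosen after the sequences were seen. The last bases of the Cox6b1 run lie inside the gene as GENCODE M21 gives it.
Cox6b2 (chr7:4753095-4753344, minus strand): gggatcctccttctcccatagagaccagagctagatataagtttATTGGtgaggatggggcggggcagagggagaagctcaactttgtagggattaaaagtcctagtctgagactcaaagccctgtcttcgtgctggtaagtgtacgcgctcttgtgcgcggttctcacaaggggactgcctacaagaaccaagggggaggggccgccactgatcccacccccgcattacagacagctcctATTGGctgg
Cox6b1 (chr7:30626115-30626364, minus strand): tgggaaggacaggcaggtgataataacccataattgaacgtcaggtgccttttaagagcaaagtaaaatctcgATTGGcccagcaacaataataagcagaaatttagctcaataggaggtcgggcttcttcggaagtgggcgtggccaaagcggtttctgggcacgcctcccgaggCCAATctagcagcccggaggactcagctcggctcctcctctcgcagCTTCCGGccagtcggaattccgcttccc
Cox7b2 (chr5:71548206-71548455, minus strand): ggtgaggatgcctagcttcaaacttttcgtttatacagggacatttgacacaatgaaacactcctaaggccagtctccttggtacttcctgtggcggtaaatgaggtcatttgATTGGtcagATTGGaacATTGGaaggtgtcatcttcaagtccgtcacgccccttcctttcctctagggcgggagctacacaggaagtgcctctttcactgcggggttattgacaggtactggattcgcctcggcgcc
Cox7b (chrX:106015450-106015699, plus strand): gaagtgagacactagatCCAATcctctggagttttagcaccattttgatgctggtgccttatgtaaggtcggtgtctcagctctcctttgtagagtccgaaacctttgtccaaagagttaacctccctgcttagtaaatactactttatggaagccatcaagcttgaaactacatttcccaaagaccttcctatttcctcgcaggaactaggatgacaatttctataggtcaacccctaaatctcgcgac
Cox8a (chr19:7217617-7217866, minus strand): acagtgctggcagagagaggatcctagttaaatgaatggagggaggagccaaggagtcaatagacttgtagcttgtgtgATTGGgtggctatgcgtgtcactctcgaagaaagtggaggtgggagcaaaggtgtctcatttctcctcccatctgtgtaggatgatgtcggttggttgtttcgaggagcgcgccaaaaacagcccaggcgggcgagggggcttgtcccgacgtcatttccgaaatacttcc
Cyct (chr2:76360454-76360703, minus strand): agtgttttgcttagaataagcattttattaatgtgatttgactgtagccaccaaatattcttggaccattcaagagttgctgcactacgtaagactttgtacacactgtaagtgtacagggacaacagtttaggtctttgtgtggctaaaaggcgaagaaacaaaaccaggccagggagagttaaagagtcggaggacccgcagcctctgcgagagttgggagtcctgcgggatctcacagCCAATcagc
Cycs (chr6:50566570-50566819, minus strand): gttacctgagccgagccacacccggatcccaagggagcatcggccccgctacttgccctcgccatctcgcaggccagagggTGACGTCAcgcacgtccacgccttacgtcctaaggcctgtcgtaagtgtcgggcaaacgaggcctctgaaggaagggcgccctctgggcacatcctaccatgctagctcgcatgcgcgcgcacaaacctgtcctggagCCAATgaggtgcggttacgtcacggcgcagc
Of these motifs other than CCAAT, which every run shown held, the run of Cox6b1 held 1 match to the GABPA letters and that of Cycs 1 match to the CRE. The GABPA match in Cox6b1 lies in the last bases of the run, which are inside the GENCODE gene. NRF1 and GABPA letters, which mark sites for transcription factors of many nuclear respiratory genes, were found in 17.9% and 16.7% of the 84 member promoters, against 3.73% and 6.91% of all 32807 RefSeq promoters of the same length. The CRE was found in 5.95% of the member promoters and 1.55% of all. In the 3 promoters of testis forms, NRF1, GABPA and CRE letters each had 0 matches, while CCAAT was in all 3, against 44.0% of the member promoters and 33.8% of all. The 4 promoters of general partners shown here held CCAAT as well, so it does not set the testis forms apart from them. TATAAA, searched on the gene's strand alone, was in 2.38% of member promoters and 7.6% of all. The median number of CpG sites in a window was 15 for members, 6 for all promoters and 8 for the testis forms. A match is a description of letters, not evidence of a bound site. Members that fell and members that rose had a like number of CpG sites, with medians of 15 and 14.

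Over the genome 38.4% of the 17038 genes tested were higher in the deletion and 46.1% were lower, by the quasi-likelihood test of edgeR after adjustment by Benjamini and Hochberg at a rate of 0.05. Of the 92 nuclear members tested, 22 rose, 49 fell and 21 did not pass the test, with a median log2 change of -0.38 against -0.19 for all genes. With TMM scaling the nuclear members held fewer gains and more losses than those shares of the genome, a difference for which no test was made. With upper-quartile scaling and with no scaling factor, given below, their shares of gains and of losses were both under those of the genome. The groups of libraries did not overlap for 84 of the 100 members tested, near the 85.9% of all genes. Counts are less certain for the 20 nuclear members tested that share 10% or more of their 50-mers with other genes, of which 3 rose and 10 fell. Among those 20 are Ndufs3, Ndufs5, Cox5b, Uqcrb, Cox7a2l, Cox7c, Atp5h and Atp5pb. The 8 mitochondrially encoded members tested all rose with TMM scaling, with a median of 1.39, but 0 of them rose at the Sertoli or Leydig level defined next. Among the 8, mt-Co2 had few counts and passed the low-count filter only through the deletion libraries, so its gain is no independent support. The 4 testis forms all fell, with changes of -5.50 to -9.66.

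These directions are relative to the rest of the RNA, and the scaling moves them together. TMM scales libraries by a trimmed mean of the changes over genes, and the median change of all genes then was -0.19. With median-of-ratios, upper-quartile and no scaling factor that median was -0.36, 0.35 and 0.45, and the nuclear members had medians of -0.55, 0.16 and 0.26, each below that of all genes. The nuclear members that rose and fell numbered 19 and 53 with median-of-ratios scaling (35.4% and 48.3% of all genes), 38 and 29 with upper-quartile scaling (47.6% and 38.8%) and 42 and 26 with no scaling factor (49.2% and 37.7%). When libraries were set to an equal level of the Sertoli or the Leydig markers, which states each gene relative to those cells, the median of all genes was -2.31 and -2.95 and that of the nuclear members -2.51 and -3.15. At Sertoli level they numbered 1 and 83 (4.36% and 75.8% of all genes) and at Leydig level 0 and 90 (1.01% and 85.9%). The mitochondrial members had medians of 1.22 to 2.03 with the first 4 of these scalings and -0.75 and -1.38 at Sertoli and Leydig level.

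**Figure D1:**
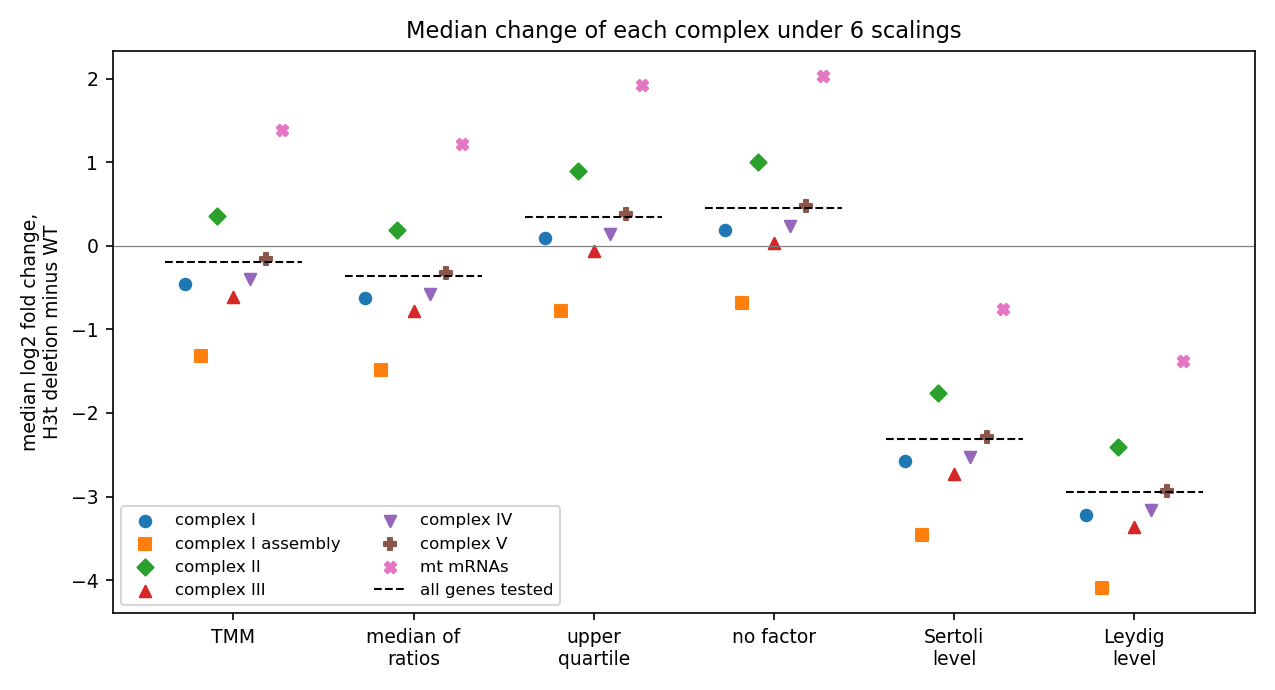
Median log2 change (deletion minus WT, y axis) of the tested members of each complex under 6 scalings (x axis), with a dashed line for all genes tested. The complexes keep their order as all of them shift: mitochondrial mRNAs are on top, at 1.39 with TMM and -1.38 at Leydig level, and the complex I assembly factors at the bottom, at -1.32 with TMM.

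**Figure D2:**
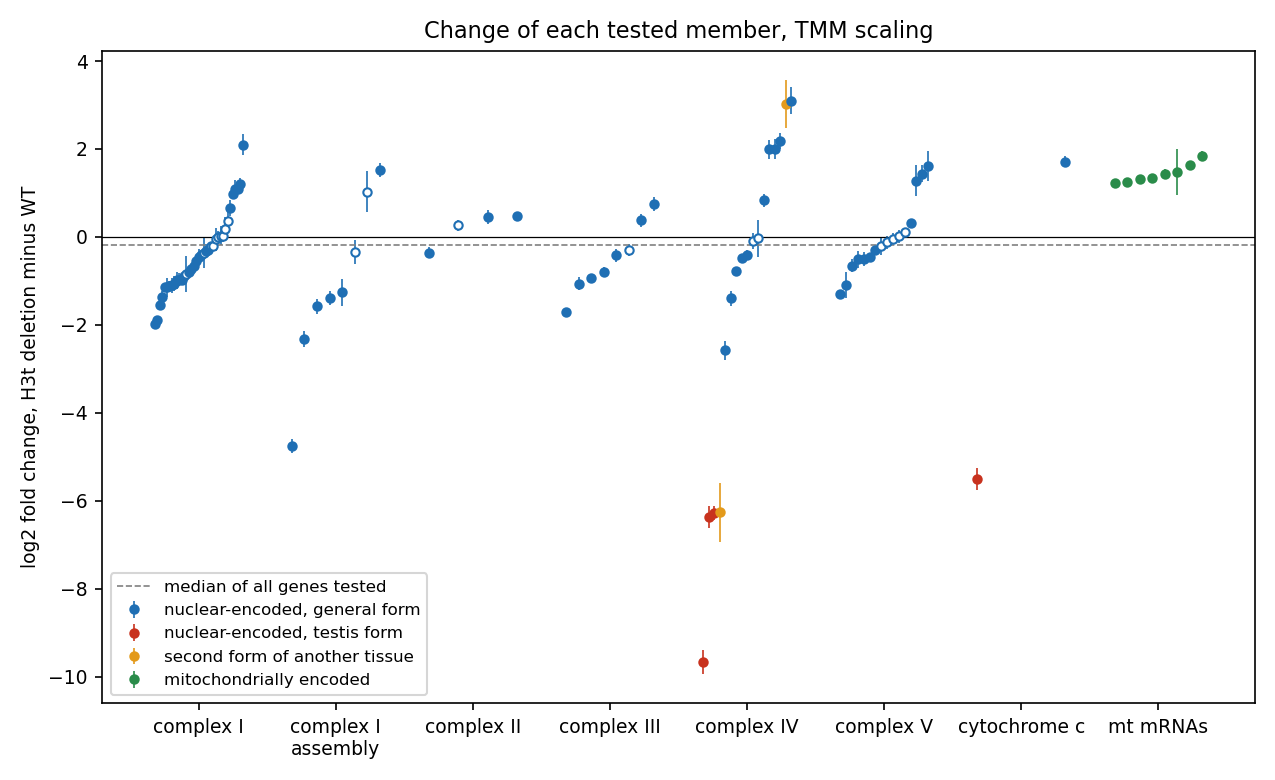
Log2 change of each tested member with TMM scaling (y axis, deletion minus WT, bars are the SE of the fit), grouped by complex (x axis). Filled points passed the test, open points did not, and the dashed line is the median of all genes. The 4 testis forms lie at -5.50 to -9.66 and the 8 mitochondrial mRNAs at 1.22 to 1.84, with directions that hold for TMM (at Sertoli and Leydig level the mitochondrial mRNAs lie below 0). Among the 8, mt-Co2 passed the low-count filter only through the deletion libraries.

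The testis forms were among the largest losses of the members. Cox6b2 (chromosome 7, 4751792 to 4753094, minus strand), the testis form of the subunit that faces the intermembrane space, had 398, 527 and 351 counts in WT and 5, 12 and 5 in the deletion. Cox7b2 (chromosome 5, 71442824 to 71548205, minus strand), a small membrane subunit, had 831, 1052 and 976 counts in WT and 21, 14 and 19 in the deletion. Cox8c (chromosome 12, 102899316 to 102900526, plus strand), the testis form of another small membrane subunit, had 633, 976 and 856 counts in WT and 3, 1 and 0 in the deletion. All 3 were high in each WT library and near or at 0 in each deletion library, with no overlap, and a count of 0 still allows up to 3 counts. Cyct (chromosome 2, 76353942 to 76360450, minus strand), the testis cytochrome c, had 316, 433 and 438 counts in WT and 11, 20 and 7 in the deletion, again without overlap. In CPM, as mean ± SD over 3 libraries, Cox6b2 went from 57.6 ± 7.01 to 0.674 ± 0.356 CPM, with a log2 change of -6.38 (SE 0.25, adjusted p = 1.63e-12). Cox7b2 went from 129.8 ± 7.64 to 1.67 ± 0.356 CPM, a change of -6.27 (SE 0.16, adjusted p = 1.04e-14). The loss of Cox8c was the largest among the tested members. It went from 111 ± 11.3 to 0.122 ± 0.141 CPM, a change of -9.66 (SE 0.27, adjusted p = 3.43e-14). Cyct went from 53.8 ± 6.94 to 1.16 ± 0.585 CPM, a change of -5.50 (SE 0.25, adjusted p = 8.54e-12). The 4 losses kept their direction and their call under every scaling, with DESeq2 and without each library.

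The general partners of these forms went the other way with TMM scaling. Cox6b1 (chromosome 7, 30616861 to 30626151, minus strand) had 28, 36 and 33 counts in WT and 179, 179 and 208 in the deletion. Cox7b (chromosome X, 106015700 to 106022450, plus strand) had 8, 18 and 13 counts in WT and 157, 133 and 199 in the deletion. Cox8a (chromosome 19, 7215153 to 7217616, minus strand) had 38, 74 and 46 counts in WT and 399, 338 and 306 in the deletion. Every deletion library was above every WT library for these 3 genes. Cycs (chromosome 6, 50562563 to 50566538, minus strand), the cytochrome c of somatic cells and early germ cells, had 129, 190 and 139 counts in WT and 803, 706 and 684 in the deletion, also without overlap. The log2 changes were 1.99 (SE 0.22, adjusted p = 4.54e-07) for Cox6b1, 3.10 (SE 0.30, adjusted p = 1.17e-07) for Cox7b, 2.18 (SE 0.19, adjusted p = 3.61e-08) for Cox8a and 1.71 (SE 0.12, adjusted p = 3.5e-09) for Cycs. Relative to Sertoli markers Cox6b1 and Cycs turned to -0.13 and -0.41 while Cox8a was at 0.07, and relative to Leydig markers Cox6b1, Cox8a and Cycs were at -0.78, -0.58 and -1.05, with Cox7b at 0.34. Of the 50-mers in the Cycs transcripts, 26.15% are shared with other genes, mostly Gm10053, so its counts are less certain than those of the others.

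Within a library, the share of each pair that the testis form holds needs no scaling between libraries. On counts per kb of exon, Cox8c made up 95.7%, 94.7% and 96.2% of Cox8a plus Cox8c in the WT libraries and 1.01%, 0.398% and 0% in the deletion libraries. The share of Cox6b2 went from 89.2% ± 1.76 to 2.46% ± 1.43 (SD, n = 3), and that of Cox7b2 from 99.4% ± 0.165 to 19.9% ± 2.81. The share of Cyct went from 93.1% ± 1.06 to 8.18% ± 4.11. All 4 shares were lower in every deletion library than in any WT library, and each exact two-sided permutation test over the libraries gave p = 0.1, the smallest that 3 against 3 allow, and 0.1 after Benjamini-Hochberg adjustment over the 4 pairs. Cox7b2 kept the highest share of the 4 in the deletion, and with no length correction that share was 10% ± 1.6. On counts per kb of coding sequence, a choice made after the data were seen, the cytochrome c shares were lower, 72.1% ± 3.35 and 1.71% ± 0.924. Cycs has 3404 bases of exon and Cyct 655, while both code for 315 bases.

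The summed level of both forms per kb of exon was lower in the deletion for all 4 pairs with TMM scaling, but for cytochrome c this rested on the exon lengths. The sum went from 241 ± 14 to 15.6 ± 3.36 CPM per kb for Cox7b and Cox7b2, 15.5-fold lower in the deletion. For Cox8a and Cox8c it went from 253 ± 25.6 to 52.2 ± 6.82 CPM per kb, 4.85-fold lower, and for Cycs and Cyct from 88.1 ± 10.4 to 21.7 ± 1.55, 4.07-fold lower. For Cox6b1 and Cox6b2 it went from 58.2 ± 6.03 to 25.3 ± 2.69, 2.3-fold lower. The groups did not overlap in any of these sums per kb of exon. Per kb of coding sequence, chosen after the data were seen, the cytochrome c sum was 220, 230 and 258 CPM per kb in WT and 238, 208 and 209 in the deletion, 1.08-fold lower with overlapping libraries. On that measure the Cox7b, Cox8 and Cox6b sums were 7.65-fold, 3.75-fold and 2.3-fold lower, without overlap. Spermatid and meiotic markers fell beside the testis forms, as given above, and their part in these sums was not tested.

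**Figure D3:**
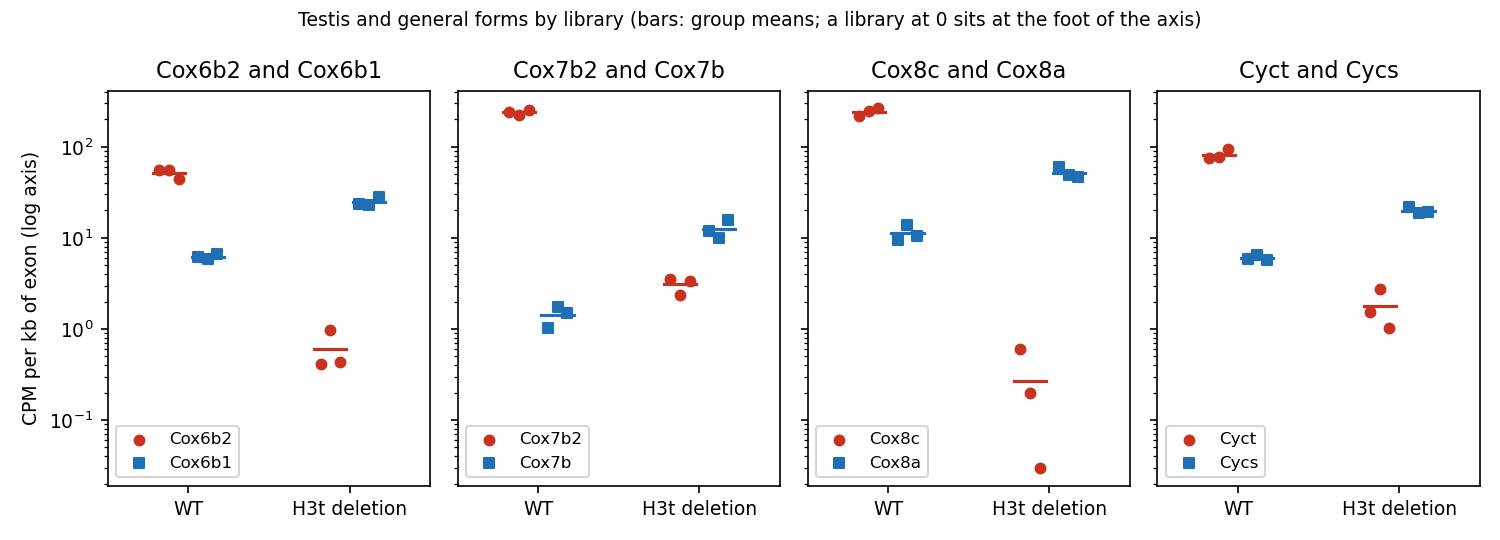
CPM per kb of exon (TMM scaling, log axis) of each testis form (circles) and its general partner (squares) in the 3 WT and 3 H3t deletion libraries, with bars for group means and a library at 0 drawn at the foot of the axis. In each of the 4 pairs the testis form is above the general form in WT and below it in the deletion.

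Complex IV also has second forms known from other tissues. Cox7a1, the heart and muscle form of a subunit whose usual form is Cox7a2, had 1, 5 and 3 counts in WT and 42, 38 and 29 in the deletion, a log2 change of 3.02 (SE 0.54, adjusted p = 9.43e-05). Cox7a2 fell, from 21.1 ± 1.84 to 3.51 ± 0.697 CPM, a change of -2.58 (SE 0.22, adjusted p = 2.86e-08). Their libraries did not overlap, and Cox7a1 held 3.2% ± 1.85 of the pair per kb of exon in WT and 62.9% ± 0.835 in the deletion. The gain of Cox7a1 was 0.95 at Sertoli level and 0.30 at Leydig level and passed the test in neither. Skeletal or heart muscle markers were summed at 93.4 to 108 CPM in WT and 149 to 175 CPM in the deletion. Of the 7 tested, 3 were higher (Myh6, Myh7 and Tnnt2) and 2 lower (Myh1 and Ryr1). Acta1, Ckm and Myh2 had 0 counts in every deletion library, and Actc1 and Tnni2 had 0 in every WT library. Ndufa4l2, a form of Ndufa4 induced by low oxygen in many cells, had 63, 77 and 40 counts in WT and 0, 0 and 3 in the deletion, a count ratio of 87.9 with a 95% counting interval of 29.6 to 430. Ndufa4 itself rose from 5.33 ± 1.42 to 21.7 ± 3.14 CPM, a change of 2.0 (SE 0.22, adjusted p = 6.4e-07), a gain that became -0.11 on the Sertoli scale and -0.77 on the Leydig scale. Ndufa4l2 made up 75.3%, 62.2% and 58.4% of the pair per kb of exon in WT and 0%, 0% and 1.41% in the deletion. Cox4i2, the lung form of Cox4i1, had too few counts to be tested, 2 in WT and 22 in the deletion, a ratio of 7.51 with an interval of 1.85 to 65.9. Cox6a2 and Cox8b, the muscle forms of Cox6a1 and Cox8a, had 0 counts in every library.

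Over the general forms of complex IV, those above included, the direction differed from gene to gene. Of the 12 tested 5 rose and 5 fell with TMM scaling, beside 38.4% higher and 46.1% lower among all genes. Their median was -0.06. Cox5b, the zinc-binding matrix subunit, with the most CPM of the general forms, fell from 94.4 ± 3.67 to 55.2 ± 1.64 CPM, a change of -0.77 (SE 0.09, adjusted p = 1.72e-06), a loss that did not pass the test without a scaling factor (-0.13). Cox4i1, the largest nuclear subunit, fell from 69.2 ± 3.73 to 49.3 ± 1.65 CPM, a change of -0.49 (SE 0.10) that turned to 0.05 under upper-quartile scaling and 0.15 with no scaling factor. Cox5a, a matrix subunit that pairs with Cox4i1 in assembly, fell from 27.5 ± 3.43 to 10.4 ± 0.685 CPM, a change of -1.40 (SE 0.17). Cox6a1 rose from 27.8 ± 4.27 to 49.6 ± 7.93 CPM, a change of 0.83 (SE 0.15), which was -1.29 at Sertoli and -1.95 at Leydig level. Cox6c fell, with a change of -0.40 that passed the test with TMM scaling. It turned to 0.14 under upper-quartile scaling and 0.24 with no scaling factor and was called in neither. Cox7c and Cox7a2l, a factor that joins complexes III and IV, were at -0.03 and -0.09 and did not pass the test.

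Complex I, the largest complex, was mostly lower with TMM scaling. Of its 37 nuclear subunits 21 fell, 6 rose and 10 did not pass the test, beside 46.1% lower and 38.4% higher among all genes. The median of the 37 was -0.45, against 0.09 under upper-quartile scaling and 0.19 with no scaling factor, below the median of all genes in each case. Of the 7 core subunits that carry the redox centres and the quinone site, 4 fell (Ndufs1, Ndufs3, Ndufv1 and Ndufv2) and 0 rose, while of 30 accessory subunits 17 fell and 6 rose. Ndufv2 (chromosome 17, 66078638 to 66101559, minus strand), an iron-sulfur subunit of the NADH-binding tip with the most CPM of complex I, was at 390.4, 358 and 383 CPM in WT and 100.9, 99.3 and 104 CPM in the deletion. The deletion libraries were all below the WT libraries and close to each other, and the log2 change was -1.89 (SE 0.08, adjusted p = 8.18e-12). Ndufa12, an accessory subunit of the peripheral arm, was the largest loss, from 74 ± 6.32 to 18.9 ± 1.87 CPM, a change of -1.97 (SE 0.13, adjusted p = 7.7e-10). Of its 50-mers 17.74% are shared with other genes, mostly Gm15920. Ndufa5 and Ndufs4, accessory subunits of the peripheral arm, fell, with changes of -1.55 and -0.97, and Ndufc1 and Ndufb10, of the membrane arm, with changes of -1.15 and -0.73. With upper-quartile and no scaling factor the losses of Ndufs1 (-0.01 and 0.09), Ndufs3 (-0.11 and -0.02), Ndufv1 (-0.24 and -0.15) and Ndufb10 (-0.18 and -0.09) did not pass the test.

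The 6 complex I subunits that rose with TMM scaling were Ndufb11, Ndufv3, Ndufc2, Ndufa1, Ndufa10 and Ndufa3. Ndufb11, an X-linked subunit of the membrane arm, had 30, 27 and 26 counts in WT and 196, 178 and 153 in the deletion, a log2 change of 2.10 (SE 0.24, adjusted p = 7.21e-07). Its libraries did not overlap, its change was -0.03 at Sertoli and -0.66 at Leydig level, and 17.46% of its 50-mers are shared with other genes. Ndufv3, a small subunit of the NADH-binding tip, rose from 17.6 ± 1.83 to 40.6 ± 2.36 CPM, and Ndufc2, of the membrane arm, from 39.4 ± 1.4 to 84.5 ± 8.97 CPM. Ndufa10, a membrane arm subunit with a kinase-like fold, rose from 36.2 ± 0.967 to 70.9 ± 4.32 CPM, a change of 0.97 (SE 0.11). At Sertoli level 36 of the 37 subunits were lower and 0 higher, against 75.8% and 4.36% of all genes, and at Leydig level all 37 were lower, against 85.9% of all genes. Some calls of small size ended when a library was left out. Ndufa8 (-0.31) was not called without WT replicate 1 (-0.31), WT replicate 2 (-0.31), deletion replicate 2 (-0.28) or deletion replicate 3 (-0.27), and Ndufs5 (-0.45) was not called without WT replicate 2 (-0.36) or deletion replicate 2 (-0.27). Ndufa6 and Ndufb3, not called with all libraries, were called lower without WT replicate 2 or deletion replicate 3 (Ndufa6, -0.27 and -0.26) and without deletion replicate 2 (Ndufb3, -1.23). Scaling moved them too. Ndufa8 was at 0.23 with upper-quartile scaling and was called higher with no scaling factor (0.33), Ndufs5 was at 0.09 and 0.19 and not called, and Ndufa6 was called higher in both (0.33 and 0.43).

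The Nduf assembly factors, which build complex I but are no part of it, included larger losses than any of its subunits. Of the 8 tested, 5 fell and 1 rose with TMM scaling, beside 46.1% lower and 38.4% higher among all genes. Their median of -1.32 stayed below 0 under all 6 scalings. Ndufaf3 (chromosome 9, 108565537 to 108567434, minus strand), which works with Ndufaf4 on the quinone-binding module, was at 98.8, 99.6 and 119.7 CPM in WT and 3.32, 4.79 and 3.62 CPM in the deletion. Each deletion library was far below each WT library, a change of -4.75 (SE 0.16, adjusted p = 2.39e-13). Ndufaf4, its partner, went the other way with TMM scaling, at 10.74, 9.65 and 10.2 CPM in WT and 29.2, 27.4 and 31 CPM in the deletion, and did not overlap, a change of 1.52 (SE 0.16, adjusted p = 3.71e-07) that became -0.61 on the Sertoli scale and -1.25 on the Leydig scale. Ndufaf2 fell, with a change of -2.32 (SE 0.18), but 65.65% of its exon bases overlap B230220B15Rik on the other strand, and the strand setting of the counting is not given in the sources used here. Ndufaf8, Ndufaf7 and Ndufaf5, a matrix factor and a pair of methyltransferase-fold proteins, fell, with changes of -1.58, -1.38 and -1.26, the last not called with no scaling factor (-0.62). Ndufaf6 (1.03) did not pass the test, but was called higher without WT replicate 1 (1.67) or deletion replicate 3 (1.19), and Ndufaf1 was at -0.35.

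Complex II, succinate dehydrogenase, had small changes, from -0.36 to 0.47 with TMM scaling. Sdha, the flavoprotein that oxidises succinate, was at 187, 214 and 192 CPM in WT and 298, 251 and 273 CPM in the deletion. The groups did not overlap, and the log2 change was 0.47 (SE 0.09, adjusted p = 0.000233), which was -1.66 at Sertoli and -2.3 at Leydig level. Sdhb, the iron-sulfur subunit that takes electrons from Sdha, fell from 43.2 ± 3.81 to 33.6 ± 3.35 CPM, a change of -0.36 (SE 0.13, adjusted p = 0.0177). This loss did not pass the test without deletion replicate 1 or deletion replicate 2 (-0.31 each) and turned to 0.18 under upper-quartile scaling and 0.28 with no scaling factor. Sdhd, a membrane anchor, rose, with a change of 0.45, but not without WT replicate 1 (0.36) or deletion replicate 1 (0.33) or with median-of-ratios scaling (0.28), and Sdhc, the other anchor, was at 0.26 and did not pass the test. The median of the 4 was 0.36, against 0.19, 0.90 and 1 with the other scalings on all genes and -1.76 and -2.41 at Sertoli and Leydig level.

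Complex III held losses among large and small subunits with TMM scaling. Cyc1, the cytochrome c1 subunit that the symbol rule leaves out, rose, with a change of 1.02. Of the 8 nuclear subunits within the rule 5 fell and 2 rose, beside 46.1% lower and 38.4% higher among all genes. Their median of -0.61 was -0.06 under upper-quartile scaling and 0.03 with no scaling factor. Uqcrc1, a core protein with the most CPM among them, was at 199.9, 199.5 and 192 CPM in WT and 102, 102 and 104 CPM in the deletion. Uqcrq, a small subunit next to cytochrome b, was at 171, 164 and 174 CPM in WT and 50.7, 50.5 and 54.9 CPM in the deletion. Both genes were lower in each deletion library, with changes of -0.94 (SE 0.08, adjusted p = 3.32e-08) and -1.71 (SE 0.09, adjusted p = 6.66e-11). Uqcrfs1, the Rieske iron-sulfur protein, fell from 71.4 ± 4.39 to 34.2 ± 7.12 CPM, a change of -1.06 (SE 0.14), and Uqcrh, the hinge protein that binds cytochrome c1, fell too, with a change of -0.80 (SE 0.12) that was not called with upper-quartile (-0.26) or no scaling factor (-0.16). Uqcrc2, the other core protein, fell, with a change of -0.42, but not without WT replicate 2 (-0.32), and was at 0.13 and 0.22, not called, with upper-quartile and no scaling factor. Of its 50-mers 17.65% are shared with other genes. Uqcr11, the smallest subunit, rose from 18.6 ± 1.74 to 31.4 ± 1.59 CPM, a change of 0.75 (SE 0.15), which was -1.38 at Sertoli and -2.02 at Leydig level. Uqcr10 rose with all libraries, with a change of 0.38, but was not called with median-of-ratios scaling (0.21) or when WT replicate 1 (0.25), WT replicate 2 (0.35), deletion replicate 1 (0.35) or deletion replicate 3 (0.37) was left out. Uqcrb (-0.29) was not called with TMM scaling of all libraries, but was called lower without WT replicate 2 (-0.42) or deletion replicate 2 (-0.36). The call of Uqcrb also turned on the scaling. It was lower with median-of-ratios scaling (-0.46), with DESeq2 (-0.44) and at Sertoli (-2.42) and Leydig (-3.05) level, and higher with no scaling factor (0.36).

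Complex V, the ATP synthase, differed from part to part. The median of the 16 subunits tested was -0.16 with TMM scaling. Of them 7 fell, 4 rose and 5 did not pass the test, beside 46.1% lower and 38.4% higher among all genes. These counts turned with the scaling, to 9 higher and 1 lower with upper-quartile scaling (median 0.38) and 10 higher and 1 lower with no scaling factor (median 0.48). In the catalytic F1 head, Atp5a1, the alpha subunit, was at 278, 288 and 282 CPM in WT and 351, 333 and 370.4 CPM in the deletion, and Atp5b, the beta subunit that forms ATP, at 299, 305 and 294 CPM in WT and 251, 238 and 249 CPM in the deletion. With TMM scaling Atp5a1 was higher and Atp5b lower in every deletion library, with changes of 0.31 (SE 0.08) and -0.29 (SE 0.08). The gain of Atp5a1 did not pass the test with median-of-ratios scaling (0.14) or DESeq2 (0.16) and was -1.82 and -2.46 at Sertoli and Leydig level. Atp5b turned to called higher with upper-quartile (0.26) and no scaling factor (0.35), so that both genes were then higher. Atp5e, the epsilon subunit, fell, with a change of -1.10, which was not called with upper-quartile (-0.56) or no scaling factor (-0.46), and Atp5c1 and Atp5d, of the central stalk, were at 0.12 and -0.12.

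The c subunit of the rotor ring is encoded by Atp5g1, Atp5g2 and Atp5g3, which make the same mature protein. Atp5g1 had 10, 29 and 19 counts in WT and 105, 72 and 80 in the deletion, and Atp5g3 had 50, 65 and 58 counts in WT and 262, 226 and 200 in the deletion. Both were higher in each deletion library with TMM scaling, with changes of 1.62 (SE 0.34, adjusted p = 0.000382) and 1.44 (SE 0.19, adjusted p = 3.46e-06). At Sertoli and Leydig level Atp5g1 was at -0.48 and -1.14 and Atp5g3 at -0.69 and -1.33. Of the 50-mers of Atp5g1, 11.1% are shared with other genes. Atp5g2 had 0, 8 and 3 counts in WT and 13, 28 and 6 in the deletion, too few to be tested. In the peripheral stalk Atp5j, which overlaps Gabpa on the other strand over 12.68% of its exon bases, fell with TMM scaling, with a change of -0.46 that was 0.08 and not called with upper-quartile scaling and called higher with no scaling factor (0.18). Atp5o fell, with a change of -0.65 and 41.6% of its 50-mers shared, and was not called with upper-quartile (-0.11) or no scaling factor (-0.01), while Atp5h and Atp5pb were at -0.04 and 0.01. Among the membrane subunits Atp5mpl, a small proteolipid, fell most, from 268 ± 15.7 to 109.9 ± 6.73 CPM, a change of -1.29 (SE 0.09, adjusted p = 1.93e-09). Atp5l rose from 3.32 ± 1.33 to 7.99 ± 2.56 CPM, a change of 1.28 (SE 0.36) with TMM scaling. It was at -0.84 and not called at Sertoli level and was called lower at Leydig level (-1.47). Atp5j2 fell, with a change of -0.50 that turned to 0.05 and 0.14 with upper-quartile and no scaling factor, and Atp5md was at -0.20. Atp5k, which helps synthases pair up, was called lower (-0.51) although its libraries overlapped, and the call was lost without WT replicate 2, WT replicate 3, deletion replicate 2 or deletion replicate 3 (-0.47, -0.39, -0.43 and -0.40) and with upper-quartile (0.03) or no scaling factor (0.13).

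The 3 X-linked members were Ndufa1, Ndufb11 and Cox7b. All 3 rose with TMM scaling, with changes of 1.09, 2.10 and 3.10, beside a background of 65.9% higher and 24% lower among the 624 X-linked genes tested, whose median was 1.59. Of the 75 autosomal general subunits 17 rose and 39 fell, with a median of -0.36, beside 38.4% higher and 46.1% lower among all genes. The X-linked members thus went the way of most X-linked genes.

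The mitochondrial mRNAs with high counts had the highest levels per kb of exon of all members in both groups. mt-Cytb, the cytochrome b of complex III, was at 2210, 2243 and 2535 CPM in WT and 6092, 6165 and 6645 CPM in the deletion. mt-Co1, the catalytic subunit of complex IV, was at 2702, 2781 and 2972 CPM in WT and 6320, 6487 and 7278 CPM in the deletion. Every deletion library lay above every WT library for both genes, with log2 changes of 1.44 (SE 0.10, adjusted p = 2.61e-09) and 1.25 (SE 0.10, adjusted p = 1.53e-08). Per kb of exon the median of the 8 tested went from 650 to 1700 CPM per kb, against 20.1 and 16.8 CPM per kb for the 78 tested nuclear subunits of general form. mt-Nd1, a quinone-site subunit of complex I, changed least, from 1220 ± 106 to 2838 ± 96.2 CPM, a change of 1.22 (SE 0.10). mt-Nd6, the only mitochondrial mRNA read from the other strand, changed most, at 216, 256 and 293 CPM in WT and 882, 946 and 921 CPM in the deletion, a change of 1.84 (SE 0.11, adjusted p = 1.99e-10). mt-Nd2, mt-Nd4 and mt-Nd5, the proton-pumping subunits of complex I, had log2 changes of 1.31, 1.33 and 1.63. The groups did not overlap for any of the 8, and the changes were below 0 at Sertoli and Leydig level, at -0.88 and -1.52 for mt-Co1, -0.69 and -1.33 for mt-Cytb, -0.91 and -1.55 for mt-Nd1 and -0.28 and -0.92 for mt-Nd6.

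The remaining mitochondrial mRNAs were counted hardly at all, and most of them share their sequence with annotated copies in the nuclear genome. mt-Co2, with 5, 3 and 6 counts in WT and 17, 22 and 20 in the deletion, passed the low-count filter only through the deletion libraries. Its gain of 1.48 was not called without WT replicate 2 (1.14), deletion replicate 2 (1.42) or deletion replicate 3 (1.45). Nor was it called with DESeq2 (1.34) or at a false discovery rate of 0.01. mt-Co3 had 3, 5 and 4 counts in WT and 17, 12 and 5 in the deletion, and mt-Atp6 had 3, 6 and 4 counts in WT and 13, 16 and 9 in the deletion. Of the 50-mers in mt-Co2, mt-Co3, mt-Atp6, mt-Nd4l and mt-Nd3, 100%, 99.86%, 99.53%, 98.79% and 97.99% are shared with other genes, mostly annotated pseudogenes on chromosome 1, and how reads with several matches were counted is not given in the sources used here. mt-Nd4 and mt-Co1 share 62.23% and 51.14%, and mt-Nd1, mt-Cytb and mt-Nd6 share 0%. The levels of the sharing genes are therefore uncertain, and no order of level among the 13 is given. mt-Atp8 shares 0% by this measure yet had 0, 3 and 1 counts in WT and 4, 3 and 2 in the deletion. It overlaps mt-Atp6 over 21.08% of its bases.

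**Figure D4:**
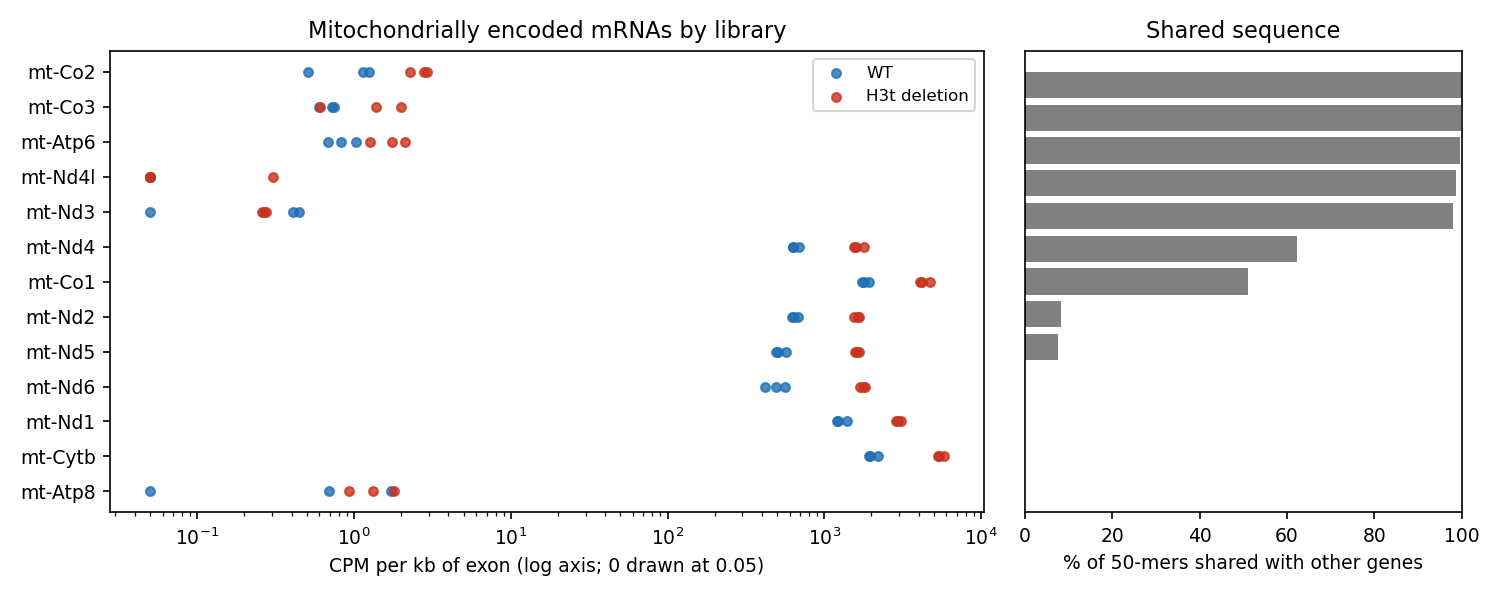
CPM per kb of exon (TMM scaling, log axis, 0 drawn at 0.05) of the 13 mitochondrial mRNAs in each library on the left, and the percentage of their 50-mers shared with other genes on the right. The genes with 97.99% or more shared sit near the foot of the axis in all libraries, and for the 7 genes with high counts the deletion libraries lie above the WT libraries (a direction that turns at Sertoli and Leydig level).

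Measured within libraries, the mitochondrial mRNAs gained on the nuclear members. They took 0.697%, 0.714% and 0.779% of all counts in the WT libraries and 2.73%, 2.94% and 3.15% in the deletion libraries, that is 0.73% ± 0.0433 and 2.94% ± 0.21 (SD, n = 3). The nuclear members together took 0.429% ± 0.00777 and 0.462% ± 0.00854. So there were 1.7 ± 0.104 mitochondrial mRNA counts per nuclear member count in WT and 6.37 ± 0.397 in the deletion, without overlap. The mean log2 CPM of the 8 mitochondrial members, mt-Co2 included, minus that of the nuclear subunits went from 3.75 ± 0.14 to 5.64 ± 0.12, a rise of 1.89. Over the 5 tested members with less than 10% shared 50-mers, a choice made after the data were seen, it was 1.97. The mitochondrial rRNAs moved beside them, with 5.25% ± 0.387 of all counts in WT and 19.1% ± 0.361 in the deletion, and the ratio of rRNA to mRNA counts was 7.19 ± 0.147 and 6.51 ± 0.354. These ratios need no scaling between libraries. The part of the Sertoli and Leydig marker gains in them was not tested.

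The complexes also moved against each other within libraries. The mean log2 CPM of the general nuclear subunits of complex I minus that of the other 4 complexes was 0.22, 0.12 and 0.12 in the WT libraries and -0.26, -0.24 and -0.25 in the deletion libraries. For complex III it went from 0.95 ± 0.02 to 0.58 ± 0.02. Complexes II, IV and V went up on this measure, II from 0.65 ± 0.04 to 1.06 ± 0.09, IV from -1.32 ± 0.05 to -0.70 ± 0.01 and V from 0.10 ± 0.05 to 0.29 ± 0.04. The groups did not overlap in any of the 5 complexes. Each complex is set against the others, so the 5 measures are not independent. The complex IV measure is a mean over 12 genes, of which 5 rose and 5 fell with TMM scaling (median -0.06). The largest gains among the 12 were those of Cox7b (3.10), Cox8a (2.18), Ndufa4 (2.0) and Cox6b1 (1.99), and the rise is not one of every subunit. The measure for complex IV uses the general forms alone, so the testis forms, which carried most of the Cox6b, Cox7b and Cox8 mRNA in WT, are not in it, and the sums given above show the pairs with both forms.

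**Figure D5:**
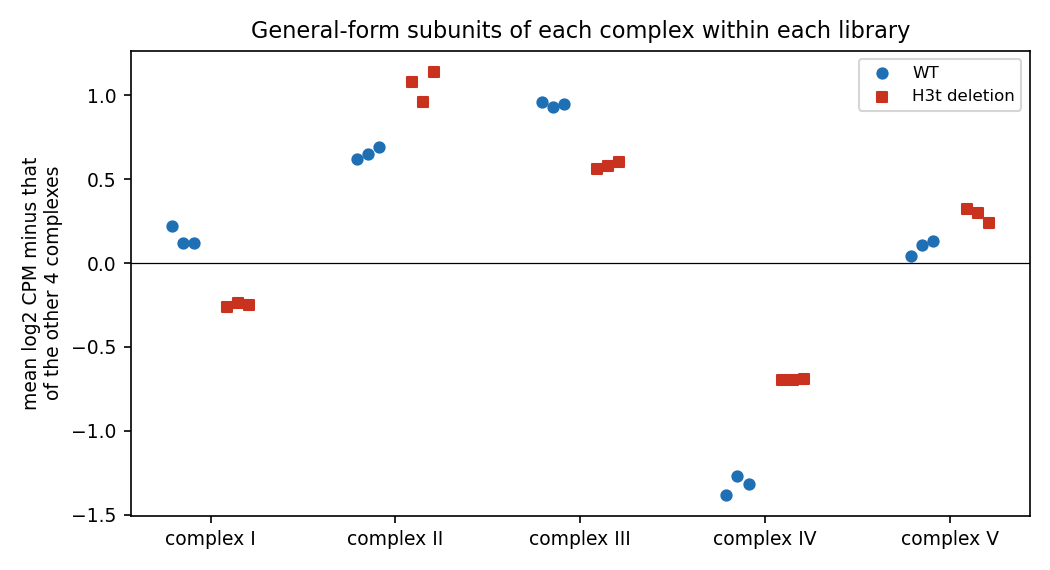
Mean log2 CPM of the general nuclear subunits of each complex minus that of the other 4 complexes (y axis), for each WT and each deletion library. Complexes I and III are lower and complexes II, IV and V higher in every deletion library than in any WT library, with complex IV going from -1.32 to -0.70. The complex IV value is a mean over 12 genes, of which 5 rose and 5 fell with TMM scaling.

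Other genes that build or run the respiratory chain, taken from lists of known factors, also went in both directions with TMM scaling. Over all genes 38.4% were higher and 46.1% lower. Of 9 complex I assembly factors outside the Nduf names 3 rose and 3 fell, among them Tmem126b (1.61) and Ecsit (-1.23). Of 7 further complex III genes 2 rose and 3 fell. Uqcc2, an assembly factor for cytochrome b, went from 185 to 24.7 CPM, Lyrm7, a chaperone of the Rieske protein Uqcrfs1, from 52.6 to 1.45 CPM, and Uqcc1 from 45.4 to 17.7 CPM, changes of -2.90, -5.17 and -1.36. Cyc1, the cytochrome c1 subunit that the symbol rule leaves out, rose from 10.6 to 21.5 CPM, a change of 1.02 with TMM scaling. Of 19 complex IV assembly factors 7 rose and 6 fell, with Lrpprc, which stabilises mitochondrial mRNAs, at 0.30 and Pet100 at -1.63. Cox15, which makes heme a, rose, with a change of 1.94. Of 5 complex V genes 1 rose and 2 fell, with Atpif1, the inhibitor of ATP hydrolysis by the synthase, at -0.30 and Atpaf2, which assembles F1, at -1.37. Of 4 complex II assembly factors Sdhaf3 rose (1.04) and 0 fell. The median changes of these 5 lists lay between -0.30 and 0.15.

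Of 23 genes that transcribe and maintain mitochondrial DNA 6 rose and 12 fell with TMM scaling, with a median of -0.63. Losses outnumbered gains over all genes too, at 46.1% lower and 38.4% higher, and no test of the list was made. Tfam, which packages mitochondrial DNA and starts its transcription, fell from 319 to 30.3 CPM, a change of -3.40, and Polg, the mitochondrial DNA polymerase, from 85.8 to 31.8 CPM, a change of -1.43. Polrmt, the mitochondrial RNA polymerase, was at -0.08 and did not pass the test, and Ssbp1, the single-strand binding protein, rose, with a change of 1.22 with TMM scaling. Of 12 regulators of nuclear respiratory genes 5 rose and 3 fell. Crem, a regulator of spermatid genes through CRE sites, fell from 316 to 6.99 CPM, a change of -5.50. Ppargc1a, a coactivator of mitochondrial genes, fell from 6.16 to 1.76 CPM, a change of -1.80, while Creb1, Yy1 and Gabpa rose, with changes of 0.87, 0.61 and 0.35 with TMM scaling. Nrf1, Esrra and Sp1 were at -0.13, -0.08 and 0.01 and did not pass the test.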

How the data were processed

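Testis sections gave 3 WT and 3 H3t deletion libraries with a SMART-Seq kit that keeps strand, as the labels' protocols state. The values deposited are raw counts per Ensembl gene, which the authors made with Trim Galore, HISAT2 on GRCm38 and featureCounts, per the submitters' processing notes. Versions, annotation release, strand setting and the treatment of reads with several matches are not stated in the sources at hand. All 54100 genes matched GENCODE M21, which gave coordinates, exon lengths and shared 50-mers, and 0 columns with sample values went unused. 1 count was worth 0.0904 to 0.156 CPM.

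Counts were filtered with filterByExpr, scaled by TMM and compared by edgeR's quasi-likelihood test (edgeR 4.0.16, R 4.3.3) over all 17038 genes that passed, with Benjamini-Hochberg adjustment to a rate of 0.05. TMM factors lay between 0.794 and 0.806 for WT and between 1.21 and 1.27 for the deletion, and the biological coefficient of variation was 13.1%. CPM values are TMM-scaled, log2 changes are deletion minus WT, and mean log2 CPM used a prior count of 2. The edgeR fit and the scaling to the level of a gene list were tested on simulated counts in which few genes changed. Changes as widespread as those found here, the permutation tests, the shares and the sums were not part of that check. Exact two-sided permutation tests compared the shares. Intervals and floors cover counting error only.

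The members, marker lists and pathway lists were chosen with earlier results of these data known. Named in full were the testis forms with their partners, in each complex the member with the highest CPM and the called ones with the largest gain and loss, the second forms of other tissues, and from each list up to 3 called members of highest CPM. Other members, and further list genes such as Cox15, Cyc1, Lyrm7, Uqcc1, Tmem126b, Ecsit, Ssbp1, Polrmt, Ppargc1a, Creb1, Nrf1, Esrra, Sp1, Vdac1, Slc25a4, Slc25a5, Pdha2, Pdha1, Ldhb, Ldha, Pgk1 and Gapdh, were picked for their role or value after the values were seen. Alternatives were other scalings, no filter, mt- genes left out before scaling, a false discovery rate of 0.01, DESeq2 1.42.0 and each library left out. Coding length for shares and sums, sums with no length correction or without each library, and mitochondrial members with under 10% shared 50-mers were added after the data were seen. Protein sequences were not used here, and some genes that the lists or counts include are not reported here.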

Additional observations from a re-analysis of the deposited data

How the results depend on the processing

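The scaling decided most directions. Against 22 nuclear members higher and 49 lower with TMM, upper-quartile scaling gave 38 and 29, no scaling factor 42 and 26, Sertoli-level scaling 1 and 83 and Leydig-level scaling 0 and 90. Mitochondrial members, 8 higher and 0 lower with TMM, were 0 higher and 6 lower at Sertoli level and 0 and 7 at Leydig level. Upper-quartile scaling turned Sdhb to 0.18 and Cox4i1 to 0.05, and no scaling factor to 0.28 and 0.15. Sertoli-level scaling turned Cox6b1 to -0.13, Cycs -0.41, Ndufb11 -0.03, Ndufaf4 -0.61, Sdha -1.66, Uqcr11 -1.38, Atp5a1 -1.82, Atp5g1 -0.48, Cox6a1 -1.29, Ndufa4 -0.11, mt-Co1 -0.88, mt-Cytb -0.69, mt-Nd1 -0.91 and mt-Nd6 -0.28. Leydig-level scaling gave Cox6b1 -0.78, Cox8a -0.58, Cycs -1.05, Ndufb11 -0.66, Ndufaf4 -1.25, Sdha -2.3, Uqcr11 -2.02, Atp5a1 -2.46, Atp5g1 -1.14, Cox6a1 -1.95, Ndufa4 -0.77, mt-Co1 -1.52, mt-Cytb -1.33, mt-Nd1 -1.55 and mt-Nd6 -0.92. These shifts follow from the scale itself, which moves all genes by a like amount. The rise in the share of counts on mitochondrial mRNAs, 2.21 percentage points, was 3.01 over protein-coding counts alone and 16.1 with rRNA and tRNA rows, and the rise of mitochondrial over nuclear levels, 1.89, was 1.69 with medians. The log2 change of the summed forms per kb of exon was -1.20 for Cox6b, -3.95 for Cox7b, -2.28 for Cox8 and -2.02 for cytochrome c. With no length correction, added after the data were seen, it was -1.77, -2.97, -1.87 and -0.11, and with coding length -2.93 for Cox7b, -1.91 for Cox8 and -0.11 for cytochrome c.

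Without each library in turn, nuclear members higher numbered 20 to 23, lower 47 to 49, and mitochondrial members higher 7 to 8. Of 79 called members 71 kept their call each time and 8 did not, and 5 others gained one. No paired analysis was possible because the labels pair no WT sample with a deletion sample. Low counts limit Cox4i2, Ndufa4l2, Cox8c in the deletion, and the mitochondrial mRNAs with nuclear copies.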

Other observations

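Other mitochondrial and metabolic gene lists also held genes of both directions, with the genome's shares of 38.4% higher and 46.1% lower as background. Of 20 testis metabolic isoforms and general partners, 8 rose and 11 fell with TMM scaling. The testis forms of glycolytic enzymes fell to near 0, with Ldhc, a lactate dehydrogenase, going from 1846 to 2.45 CPM, Gapdhs, a glyceraldehyde-phosphate dehydrogenase, from 808 to 1.04 CPM, and Pgk2, a phosphoglycerate kinase, from 583 to 0.708 CPM. Of their general partners Ldhb, Gapdh and Pgk1 had log2 changes of 2.58, 1.88 and 1.66, while Ldha changed by -4.18 and so did not go the way of the others. Pdha2, the testis form of pyruvate dehydrogenase E1 alpha, went from 224 to 2.67 CPM and its X-linked partner Pdha1 from 7.79 to 52.4 CPM. Slc25a31, the germ cell ADP/ATP carrier, changed by -1.66, and the general carriers Slc25a4 and Slc25a5 by 1.98 and 2.47. These gains are relative to the rest of the RNA, and at Leydig level the median of all genes lay at -2.95.

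Of 13 genes of the tricarboxylic acid cycle 6 rose and 6 fell. Sucla2, a succinyl-CoA synthetase subunit, went from 663 to 128 CPM, and Mdh2, malate dehydrogenase, from 42 to 139 CPM. Of 16 genes of mitochondrial mass and import 7 rose and 7 fell. The outer membrane channels differed among themselves, with Vdac2 going from 617 to 146 CPM, Vdac3 from 309 to 168 CPM and Vdac1 from 12 to 63.8 CPM. Hspa9, the matrix chaperone, changed by -0.71 and Immt, which shapes cristae, by -1.10. Of 77 mitochondrial ribosomal proteins 20 rose and 30 fell, with a median of -0.15, and Mrpl39 changed by -2.54.

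Further cell type markers were summed per library beside these results. Of 13 spermatogonial markers tested 7 rose and 4 fell, and of 13 macrophage markers 12 rose and 1 fell. Of 8 myoid markers 6 rose and 1 fell, and of 9 endothelial markers 6 rose and 0 fell. The spermatogonial sum nevertheless fell, from 1690 to 1730 CPM per WT library to 508 to 566 CPM per deletion library. The macrophage sums were 446 to 512 CPM in WT and 560 to 657 CPM in the deletion, with Aif1 at -5.74. The myoid sums were 650 to 677 and 740 to 810 CPM, and the endothelial sums 63 to 67.7 and 136 to 146 CPM. Of the 8 fat markers 3 were tested, of which 2 rose and 1 fell, and Ucp1 had 0 counts in every library.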
